A study of Mus musculus with 9 samples.

Results

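Integrins are cell-surface adhesion receptors made of an alpha and a beta chain. The 10 integrin chains described here are the subunits of macrophages and osteoclasts, 6 alpha chains (Itgav, Itga4, Itga5, Itgam, Itgax and Itgal) and 4 beta chains (Itgb1, Itgb2, Itgb3 and Itgb5), and they were taken by gene symbol from the 56691 genes of the deposited table. All 10 symbols were found, each for a single gene. RNA was sequenced from RAW264.7, an established line of mouse macrophages from which osteoclast-like cells arise when RANKL, the cytokine that drives osteoclast formation, is added. The control group was untreated, the RANKL group was induced to differentiate, and the RANKL + UD group received the nucleoside uridine (UD) together with RANKL. Each group holds 3 libraries that the labels call replicates, the study's methods give harvest at day 3 unless specified otherwise, and the UD dose of these libraries is not given in the sources used here. All groups are the same cell line, and nothing says how separate the replicate cultures were, so p-values measure the spread between these libraries. A culture under RANKL holds fused osteoclast-like cells beside cells that did not fuse, and in bulk RNA fewer cells of a type and less RNA per cell cannot be told apart.

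The alpha and beta chain together set which ligand an integrin binds. The pair αvβ3, known as the vitronectin receptor, is the classical adhesion receptor of osteoclasts, which use it to attach to bone matrix and to organize the actin ring under which bone is resorbed, and αvβ5 is a related receptor of osteoclast precursors. The β2 integrins of leukocytes are αL (LFA-1), αM (Mac-1, CD11b) and αX (CD11c), all paired with Itgb2, and Itgb1 pairs with α4 and α5 to bind VCAM-1 and fibronectin.

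RANKL changed the set of integrin chains, and UD changed it again in part. Under RANKL the RNA of Itgav, Itgb3, Itgax and, by less, Itgb2 rose, while that of Itgb5, Itgal, Itgam and Itga4 fell. Itgb1 moved by far less and Itga5 was not called. With UD beside RANKL, the chains that had risen were lower than with RANKL alone, Itga4 and Itgal were higher, and Itgb5 and Itgam were lower still. By edgeR's quasi-likelihood test at an adjusted p under 0.05, 5 chains were higher and 4 lower in RANKL than in control, where 27.3% and 30.2% of the 11995 tested genes were called higher and lower (57.6% in either direction). Between RANKL + UD and RANKL 2 chains were higher and 8 lower, beside 18.6% and 20.2% of all tested genes (38.8% in either direction). The median log2 fold change of the chains was 0.06, -0.47 and -0.20 in RANKL against control, RANKL + UD against RANKL and RANKL + UD against control, beside -0.03, 0.005 and -0.002 over all tested genes. Between RANKL + UD and control 3 were higher and 5 lower, beside 26.7% and 27.3% (54.0% in either direction). The libraries of the 2 groups did not overlap for 8, 9 and 8 of the 10 chains in the same order, beside 61.7%, 51.7% and 59.9% of all tested genes. The test took genes with at least 1 FPKM (reads scaled to exon length and library total) in at least 3 libraries. Itgb3 passed this filter through the RANKL group alone and Itgal mainly through the control group. Without these chains, of the other 8, 4 were higher and 3 lower in RANKL than in control, 1 was higher and 7 were lower in RANKL + UD than in RANKL, and 2 were higher and 4 lower in RANKL + UD than in control. The 3 comparisons share libraries, so their values are given side by side and are not independent of each other.

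Total counts ranged from 15951800 to 19746862 per library. The summed FPKM of 9 osteoclast markers was 57.5 to 60.2 in control, 2714 to 2919 in RANKL and 1723 to 1760 in RANKL + UD. The defining marker Calcr fell below the filter and was not tested. It was listed at 0 FPKM in the control libraries, at 0.17, 0.49 and 0.31 in RANKL, and at 0, 0.08 and 0.09 in RANKL + UD. The sum of 8 macrophage markers was 9379 to 9982, 2524 to 2766 and 2208 to 2345 in the same order, a sum made up mostly of Lyz2, with a mean of 8000 FPKM in control. Of the 7 macrophage markers tested 6 were lower and 1 higher in RANKL than in control, beside 30.2% and 27.3% of all tested genes. The higher one was Cd68 (549 and 782 FPKM in control and RANKL, log2 fold change 0.60, edgeR adjusted p = 1.07e-08). Between RANKL + UD and RANKL 4 were lower and 1 higher, beside 20.2% and 18.6% of all tested genes. The higher one was Adgre1 (log2 fold change 0.22, edgeR adjusted p = 0.0142). This call depended on single libraries, as the count of higher markers was 0 without RANKL replicate 1 or without RANKL + UD replicate 3. With limma on log2(FPKM + 1) or log2(FPKM + 0.1) 2 markers were lower. Markers of stromal cells and lymphocytes summed to at most 0.15 and 0.29 FPKM in any library. Both marker sums moved with the groups, and their part in the integrin values was not tested.

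**Figure D1:**
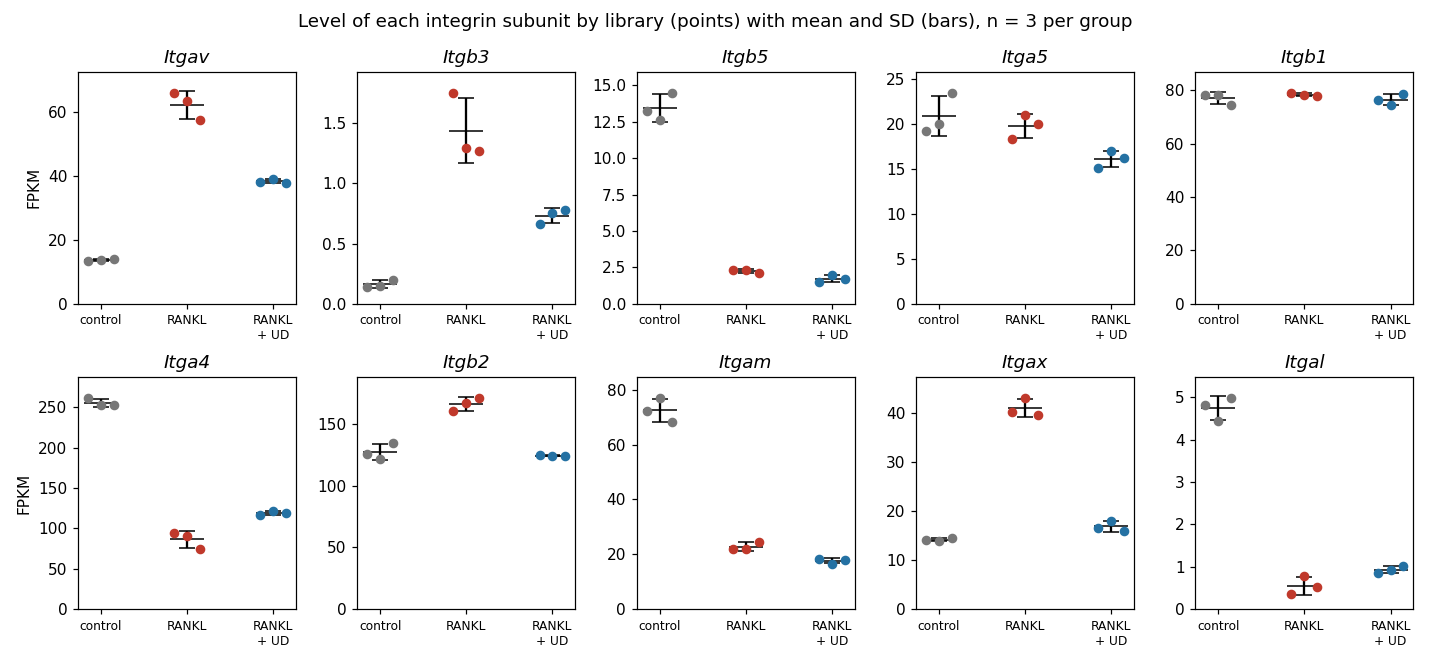
FPKM (vertical axis, linear from 0) of the 10 integrin chains in the 3 control, 3 RANKL and 3 RANKL + UD libraries, with each point a library, the horizontal bar the group mean and the error bar the SD. Itgav, Itgb3, Itgax and Itgb2 are highest in RANKL, Itgb5, Itgam, Itgal and Itga4 are highest in control, and Itgb1 stays between 74.5 and 79.1 FPKM in all 9 libraries.

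Itgav (ENSMUSG00000027087, chromosome 2, 83554741 to 83637260) encodes the αv chain, which is shared by αvβ3, αvβ5 and αvβ1. Its FPKM was 13.4, 13.6 and 14.1 in the control libraries, 66.0, 63.4 and 57.5 in the RANKL libraries, and 38.2, 39.0 and 37.9 in the RANKL + UD libraries. The 3 groups were fully separate, with RANKL + UD between the others. Itgav was 4.84-fold higher in RANKL than in control (log2 fold change 2.27, 95% interval 2.16 to 2.39, adjusted p = 8.53e-19) and 1.72-fold lower in RANKL + UD than in RANKL (log2 fold change -0.78, interval -0.89 to -0.68, adjusted p = 2.02e-10). With UD it was still 2.81-fold above control (adjusted p = 8.43e-16). In the GRCm38 annotation 634 exonic bases of Itgav are shared with Gm13684 on the opposite strand, which reached at most 1.54 FPKM in any library.

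Itgb3 (ENSMUSG00000020689, chromosome 11, 104498826 to 104561302) encodes β3, the osteoclast partner of αv. It had 14, 18 and 19 counts in the control libraries, 203, 147 and 144 in the RANKL libraries, and 76, 72 and 79 in the RANKL + UD libraries. This corresponds to 0.163 ± 0.0322 FPKM in control, 1.44 ± 0.272 in RANKL and 0.73 ± 0.0625 in RANKL + UD (SD, n = 3 each), and no library of a group overlapped with another group. Itgb3 had the largest rise of the 10 chains, 9.21-fold in RANKL against control (log2 fold change 3.20, interval 2.72 to 3.68, adjusted p = 1.28e-10). It was 2.10-fold lower in RANKL + UD than in RANKL (log2 fold change -1.07, interval -1.46 to -0.69, adjusted p = 9.63e-05) and stood 4.38-fold above control (adjusted p = 2.68e-07). Despite this rise it remained a scarce RNA. It reached 1 FPKM in the 3 RANKL libraries alone, so it passed the filter only through the group where it was high. In RANKL the αv RNA was 44.0 ± 5.82 times as abundant as that of β3 per exonic length (SD, n = 3), against 85.5 ± 13.4 times in control and 52.8 ± 4.68 times in RANKL + UD. For this ratio the RANKL libraries (37.7, 49.1 and 45.3) and the RANKL + UD libraries (57.9, 52.0 and 48.6) overlapped (two-sided exact permutation test, p = 0.2).

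Itgb5 (ENSMUSG00000022817, chromosome 16, 33650035 to 33769708) encodes β5, the other main partner of αv in this lineage, and it moved opposite to Itgb3 under RANKL. Its FPKM was 13.2, 12.6 and 14.5 in control, 2.31, 2.34 and 2.13 in RANKL, and 1.52, 2.00 and 1.68 in RANKL + UD. It was 5.58-fold lower in RANKL than in control (log2 fold change -2.48, interval -2.70 to -2.26, adjusted p = 1.95e-14). UD did not bring it back toward control. In RANKL + UD it was a further 1.39-fold lower than in RANKL (log2 fold change -0.48, interval -0.74 to -0.21, adjusted p = 0.00482), with all 3 libraries below the RANKL libraries. The ratio of β5 to β3 RNA, computed per exonic length within each library, went from 72.4 to 94.3 in the control libraries to 1.32 to 1.81 in RANKL and 2.15 to 2.67 in RANKL + UD. The ranges of the 3 groups did not overlap (two-sided exact permutation test, p = 0.1 for each pair of groups, the smallest p that 3 against 3 libraries allow).

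The stretches before the start sites of Itgav and Itgb5 are shown because these partners moved in opposite directions under RANKL. They are the 250 bases upstream of the RefSeq start on GRCm38.p6, printed 5′ to 3′, and capitals mark matches on either strand to TGANTCA (AP-1), GGAAA (NFAT core), GAGGAA (PU.1 core), CACGTG (E-box) or GGGCGG (Sp1).
Itgav promoter (chr2:83724147-83724396, plus strand): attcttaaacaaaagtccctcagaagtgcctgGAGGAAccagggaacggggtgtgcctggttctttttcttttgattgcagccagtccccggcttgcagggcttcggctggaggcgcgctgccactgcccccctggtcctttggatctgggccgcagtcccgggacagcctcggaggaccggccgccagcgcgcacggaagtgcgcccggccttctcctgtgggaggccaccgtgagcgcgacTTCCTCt
Itgb5 promoter (chr16:33829415-33829664, plus strand): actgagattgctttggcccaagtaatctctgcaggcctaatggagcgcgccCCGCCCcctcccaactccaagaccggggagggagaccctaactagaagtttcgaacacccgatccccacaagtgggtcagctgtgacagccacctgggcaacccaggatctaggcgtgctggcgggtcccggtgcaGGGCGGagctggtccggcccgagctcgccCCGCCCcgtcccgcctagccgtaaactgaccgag
The αv window holds 2 PU.1 core matches, a motif found in 23.3% of the 32851 upstream windows of all genes, and the β5 window holds 3 Sp1 matches, found in 32.7% of windows. Neither holds a match to AP-1 (6.75% of windows), to the NFAT core (55.6%) or to the E-box (6.02%). A match is a run of letters only. RefSeq windows were matched for 7 of the 10 chains, which leaves out Itgb2, Itgb3 and Itgal.

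**Figure D2:**
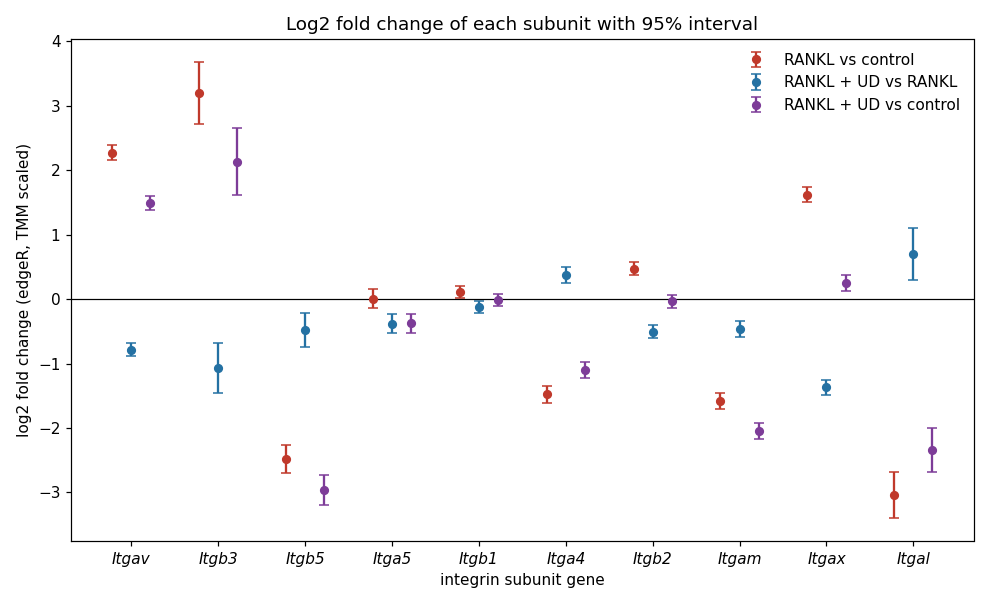
Log2 fold change (vertical axis, edgeR with TMM scaling) of each of the 10 chains in RANKL against control, RANKL + UD against RANKL, and RANKL + UD against control, with 95% intervals as error bars. Itgb3 has the highest rise with RANKL (3.20) and Itgal the deepest fall (-3.04), while the intervals of Itgb1 lie close to 0 in all 3 comparisons.

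Among the β2 integrins, the alpha chains moved in different directions under RANKL, and the shared beta chain rose by less than Itgax did. Itgb2 (ENSMUSG00000000290, chromosome 10, 77366086 to 77401542), which encodes β2, was the most abundant beta chain in each group. It had 126, 122 and 135 FPKM in control, 160, 167 and 171 in RANKL, and 125, 124 and 124 in RANKL + UD. The RANKL libraries lay above all others, while the control and RANKL + UD libraries overlapped. Itgb2 was 1.39-fold higher in RANKL than in control (log2 fold change 0.47, interval 0.37 to 0.57, adjusted p = 2.99e-08) and 1.42-fold lower in RANKL + UD than in RANKL (log2 fold change -0.50, interval -0.60 to -0.40, adjusted p = 4.79e-08). Between RANKL + UD and control the difference was -0.03 with an interval of -0.13 to 0.07, so that a change of more than 0.13 on the log2 scale in either direction lies outside the interval.

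Itgax (ENSMUSG00000030789, chromosome 7, 127728719 to 127749829) encodes αX or CD11c, a receptor best known from dendritic cells and some macrophages. It had 14.1, 13.8 and 14.5 FPKM in control, 40.2, 42.9 and 39.5 in RANKL, and 16.6, 18.0 and 15.9 in RANKL + UD. UD left it close to the control level, and still all 3 RANKL + UD libraries were above all 3 control libraries. The rise with RANKL was 3.07-fold (log2 fold change 1.62, adjusted p = 5.86e-16). Itgax had the largest difference of the 10 chains between RANKL + UD and RANKL, 2.58-fold lower (log2 fold change -1.37, interval -1.48 to -1.25, adjusted p = 2.18e-13). It was 1.19-fold above control with UD (log2 fold change 0.25, interval 0.13 to 0.37, adjusted p = 0.000909).

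Itgam (ENSMUSG00000030786, chromosome 7, 127661812 to 127717663) encodes αM or CD11b, the complement receptor chain that is widely used as a marker of macrophages and other myeloid cells. It had 72.2, 76.9 and 68.4 FPKM in control, 21.88, 22.01 and 24.56 in RANKL, and 18.4, 16.6 and 17.8 in RANKL + UD. It was 2.99-fold lower in RANKL than in control (log2 fold change -1.58, interval -1.70 to -1.46, adjusted p = 1.82e-15). As with Itgb5, UD lowered it further, by 1.38-fold against RANKL (log2 fold change -0.46, interval -0.59 to -0.33, adjusted p = 3.99e-06). In the GRCm38 annotation 3450 exonic bases of Itgam are shared with Gm49368 on the same strand, which had at most 0.91 FPKM in any library, so the split of reads between these genes is uncertain.

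Itgal (ENSMUSG00000030830, chromosome 7, 126895432 to 126934310) encodes αL, the chain of LFA-1 that binds ICAM-1. It had 534, 574 and 522 counts in the control libraries, 45, 98 and 64 in the RANKL libraries, and 110, 100 and 116 in the RANKL + UD libraries. With RANKL it was 8.23-fold lower (log2 fold change -3.04, interval -3.40 to -2.68, adjusted p = 2.17e-12), the deepest fall of the 10 chains. It was 1.62-fold higher in RANKL + UD than in RANKL (log2 fold change 0.70, interval 0.29 to 1.11, adjusted p = 0.00738) and remained 5.07-fold below control. The difference between RANKL + UD and RANKL depended on single libraries, being 0.46 (edgeR adjusted p = 0.0514) without RANKL replicate 1 and 1.04 without RANKL replicate 2.

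Itgal, Itgam and Itgax lie on the same strand of chromosome 7. Itgam and Itgax are 11055 bases apart, and Itgal ends 727501 bases before Itgam. The neighbours Itgam and Itgax moved in opposite directions under RANKL, and the ratio of αX to αM RNA per exonic length was 0.195, 0.180 and 0.212 in the control libraries, 1.84, 1.95 and 1.61 in RANKL, and 0.900, 1.09 and 0.894 in RANKL + UD. No group overlapped with another (two-sided exact permutation test, p = 0.1 for each pair, the smallest possible). Itgad, which lies 3718 bases beyond Itgax and encodes a further β2 partner, had a mean of at most 0.0233 FPKM in any group.

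The upstream windows of this neighbouring pair are shown in the same way as before. The pair was chosen with its differing matches to the motifs known.
Itgam promoter (chr7:128062390-128062639, plus strand): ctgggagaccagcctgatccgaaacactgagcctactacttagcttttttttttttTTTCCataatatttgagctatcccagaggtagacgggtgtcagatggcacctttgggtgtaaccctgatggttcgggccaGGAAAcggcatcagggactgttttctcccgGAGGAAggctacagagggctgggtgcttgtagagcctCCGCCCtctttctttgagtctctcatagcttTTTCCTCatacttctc
Itgax promoter (chr7:128129300-128129549, plus strand): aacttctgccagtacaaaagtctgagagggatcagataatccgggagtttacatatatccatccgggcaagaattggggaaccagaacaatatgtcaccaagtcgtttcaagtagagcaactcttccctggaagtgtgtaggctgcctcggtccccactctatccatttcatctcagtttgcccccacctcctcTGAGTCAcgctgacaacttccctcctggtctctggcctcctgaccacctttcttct
The αM window holds 3 NFAT core, 2 PU.1 core and 1 Sp1 matches, and the NFAT and PU.1 matches nearest to the start overlap. The αX window holds 1 AP-1 match, 56 bases before the start, and none of the other motifs. The NFAT core occurs in 55.6% of all upstream windows and the AP-1 motif in 6.75%. The window of Itga5, a chain not called in RANKL against control, holds 6 NFAT core matches. A link between matches and RNA levels was not tested.

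The chains of the fibronectin and VCAM-1 receptors form another group. Itgb1 (ENSMUSG00000025809, chromosome 8, 129412135 to 129459681), the β1 chain with the widest choice of partners, had 78.4, 78.3 and 74.5 FPKM in control, 79.1, 78.2 and 77.9 in RANKL, and 76.4, 74.5 and 78.7 in RANKL + UD, and these ranges overlapped. Its log2 fold change was 0.11 (interval 0.02 to 0.21, adjusted p = 0.0408) for RANKL against control and -0.12 (interval -0.21 to -0.03, adjusted p = 0.0405) for RANKL + UD against RANKL. Both calls ended when libraries were scaled by their totals alone, where the values were 0.02 and -0.03 (edgeR adjusted p = 0.681 and 0.587). They also ended when some single libraries were left out (highest edgeR adjusted p = 0.107 and 0.174). Both were kept without control replicate 1 and without RANKL replicate 3. For RANKL + UD against control the interval was -0.10 to 0.09.

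Itga4 (ENSMUSG00000027009, chromosome 2, 79085770 to 79163467) encodes α4, the chain of VLA-4 that binds VCAM-1 and fibronectin, and it was the most abundant integrin RNA of the unstimulated cells. It had 262, 253 and 253 FPKM in control, 93.9, 91.2 and 74.6 in RANKL, and 117, 122 and 119 in RANKL + UD. The groups were separate, and RANKL + UD lay nearer to RANKL than to control. Itga4 was 2.78-fold lower in RANKL than in control (log2 fold change -1.48, interval -1.61 to -1.34, adjusted p = 1.89e-14) and 1.30-fold higher in RANKL + UD than in RANKL (log2 fold change 0.38, interval 0.25 to 0.50, adjusted p = 5.88e-05). In the GRCm38 annotation 1124 of its exonic bases are shared with Cerkl on the opposite strand, which reached at most 1.0 FPKM.

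Itga5 (ENSMUSG00000000555, chromosome 15, 103252713 to 103275190) encodes α5, the chain of the classical fibronectin receptor. It had 19.2, 20.0 and 23.4 FPKM in control, 18.3, 21.0 and 20.0 in RANKL, and 15.1, 16.9 and 16.2 in RANKL + UD. Control and RANKL overlapped (log2 fold change 0.01, interval -0.14 to 0.15), and the RANKL + UD libraries lay below all others. It was 1.30-fold lower in RANKL + UD than in RANKL (log2 fold change -0.38, interval -0.53 to -0.24, adjusted p = 0.0002). Against control it was also 1.30-fold lower with UD (adjusted p = 0.000136), so that Itga5 differed from control with UD and not measurably with RANKL alone.

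The order of the chains by FPKM differed between the groups. In control Itga4 led with a mean of 256 FPKM, followed by Itgb2, Itgb1 and Itgam, where Itgb1 and Itgam overlapped, and Itgax, Itgav and Itgb5 overlapped with their neighbours at 13.4 to 14.1. In RANKL Itgb2 led with a mean of 166 FPKM and Itgav and Itgax had moved up to the fourth and the fifth place, ahead of Itgam. In RANKL + UD Itgb2 and Itga4 led with 124 and 119 FPKM, Itgav stood in the fourth place, and Itgam, Itgax and Itga5 overlapped with their neighbours between 16.1 and 17.6. Itgb3 had the lowest mean of the 10 chains in control and in RANKL + UD, and Itgal the lowest in RANKL. These levels are divided by the exonic length that the authors list for each gene, which is 13978 bases for Itga4 and 3052 for Itgb2.

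Shares within a library do not depend on the scaling between libraries. They are tied to each other, so a share also moves when another chain of the same sum changes. The share of Itga4 below stands beside mean levels of 256 FPKM in control, 86.6 in RANKL and 119 in RANKL + UD. Of the summed FPKM of the 6 alpha chains, Itga4 held 67.0% ± 0.836 in control, 37.1% ± 2.38 in RANKL and 57.0% ± 0.315 in RANKL + UD (SD, n = 3 each). Itgav held 3.58% ± 0.121, 26.8% ± 0.604 and 18.4% ± 0.179 in the same order, and Itgax 3.70% ± 0.114, 17.6% ± 0.779 and 8.04% ± 0.390. Itgam went from 19.0% ± 1.06 to 9.85% ± 1.29 and 8.43% ± 0.597. The libraries of these 4 shares did not overlap between any groups, and the closest were the shares of Itgam, at 9.10% in RANKL replicate 1 and 8.94% in RANKL + UD replicate 1 (two-sided exact permutation p = 0.1 for each pair of groups, the smallest possible). The share of Itga5 overlapped between RANKL (7.59, 8.69 and 9.23%) and RANKL + UD (7.36, 7.92 and 7.79%, two-sided exact permutation p = 0.3). Summed over the 6 chains the alpha FPKM was 382 ± 3.39 in control, 233 ± 14.0 in RANKL and 209 ± 4.20 in RANKL + UD.

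Of the summed FPKM of the 4 beta chains, Itgb2 held 58.4% ± 1.55 in control, 66.9% ± 0.986 in RANKL and 61.1% ± 0.644 in RANKL + UD (SD, n = 3 each). Itgb1 held 35.4% ± 1.85, 31.6% ± 0.823 and 37.7% ± 0.693, and Itgb5 6.16% ± 0.282, 0.911% ± 0.0579 and 0.853% ± 0.127. The FPKM of Itgb1 itself stayed between 74.5 and 79.1 in all libraries. The share of Itgb5 overlapped between RANKL and RANKL + UD (difference -0.0580 percentage points, two-sided exact permutation p = 0.6). The share of Itgb3 was 0.0644, 0.0705 and 0.0894% in the control libraries, 0.720, 0.518 and 0.504% in RANKL and 0.324, 0.373 and 0.381% in RANKL + UD. It was higher by 0.506 percentage points in RANKL than in control and differed by -0.221 between RANKL + UD and RANKL (two-sided exact permutation test, p = 0.1 for each, the smallest possible). By FPKM the share of β3 was below 1% in every library, whereas as a share of beta-chain counts, which are not divided by length, it was 1.24, 0.900 and 0.879% in the RANKL libraries.

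**Figure D3:**
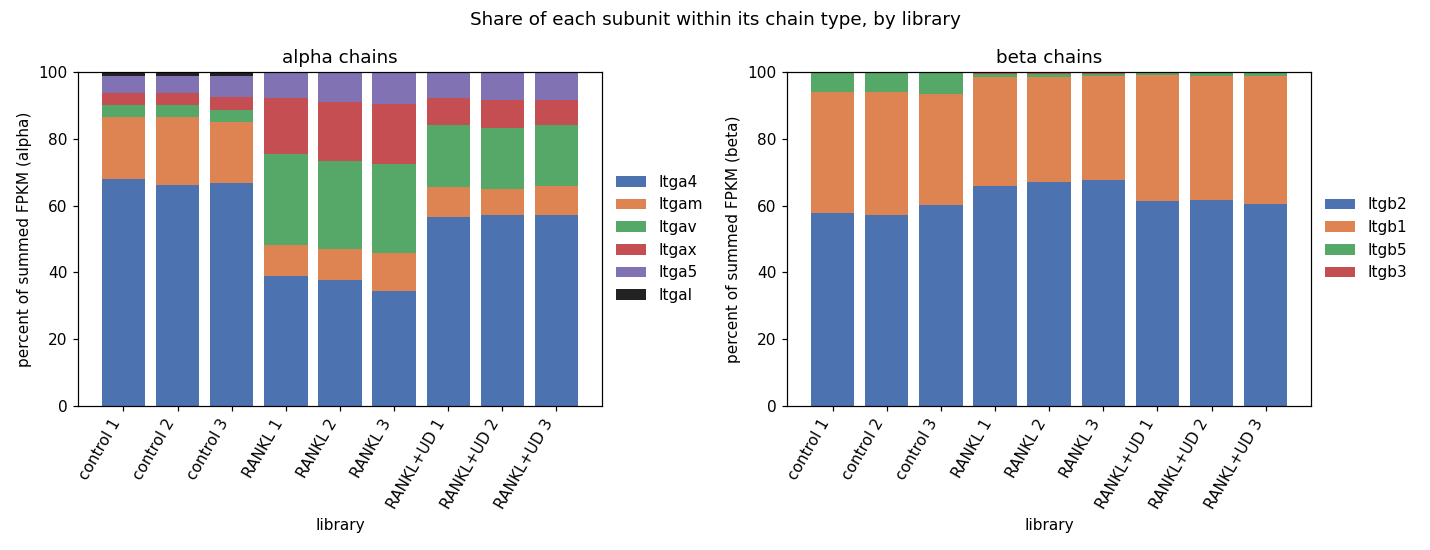
Percent of the summed FPKM (vertical axis) held by each of the 6 alpha chains and of the 4 beta chains in each of the 9 libraries (horizontal axis). Itga4 holds 66.3 to 67.9% of the alpha chains in control and 34.4 to 39.0% in RANKL, and Itgb3 is too small a part of the beta chains to be seen.

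Of the 16 other integrin subunits, 14 did not reach the filter and none of these 14 had a mean over 0.563 FPKM in any group. The tested ones were Itga6, a laminin receptor chain, and Itgb7, a leukocyte chain that pairs with α4. Itga6 had 0.55 ± 0.0964 FPKM in control, 1.19 ± 0.0814 in RANKL and 0.563 ± 0.0379 in RANKL + UD (SD, n = 3 each). It reached 1 FPKM in the 3 RANKL libraries alone and so, like Itgb3, passed the filter only through the group where it was high. Its log2 difference was 1.20 with RANKL (edgeR adjusted p = 1.07e-06), and RANKL + UD differed from RANKL by -1.17 (edgeR adjusted p = 4.45e-06). Itgb7 had 7.46 ± 0.892, 7.47 ± 1.16 and 5.59 ± 0.339 FPKM, and RANKL + UD differed from RANKL by -0.50 on the log2 scale (edgeR adjusted p = 0.00194).

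Integrins are switched on from inside the cell by talin and kindlin, under the control of Rap1, and connect to actin through adaptors such as the PINCH and parvin proteins. Of 23 activators, adaptors and other regulators of integrins 19 were tested. Of these 10 were higher and 4 lower in RANKL than in control, beside 27.3% and 30.2% of all tested genes. The list also holds regulators such as Sharpin, Itgb1bp1 and Flna. It was not split by whether a gene favours or restrains integrin activation, so its counts give no direction of activation. The median log2 fold change was 0.20 beside -0.03 over all tested genes. Between RANKL + UD and RANKL 2 were higher and 10 lower, beside 18.6% and 20.2% of all tested genes, with a median of -0.13 beside 0.005. With totals as the only scaling these counts were 8 and 6 with RANKL and 4 and 6 with UD beside RANKL, so the split of this list depended on the scaling. Lims2, a PINCH adaptor, went from 1.74 ± 0.375 FPKM in control to 6.80 ± 0.706 in RANKL and 3.03 ± 0.361 in RANKL + UD (SD, n = 3 each), and RANKL + UD differed from RANKL by -1.26 on the log2 scale (edgeR adjusted p = 4.52e-07). Parvb, β-parvin, went from 9.92 ± 0.534 to 20.3 ± 0.411 and 14.3 ± 0.255, a difference of -0.59 with UD (edgeR adjusted p = 8.1e-08). Dok1, an adaptor that can bind the beta-chain tail, fell by 0.72 on the log2 scale, and Cd47, a partner of αvβ3 at the membrane, fell by 0.43. Tln2, the less abundant talin, was higher by 0.37 in RANKL + UD than in RANKL, at means of 0.943 and 1.30 FPKM in RANKL and RANKL + UD. It reached 1 FPKM in 3 RANKL + UD libraries and in 1 library of each other group, and the call ended without RANKL + UD replicate 1 (0.33, edgeR adjusted p = 0.0558) or RANKL + UD replicate 2 (0.33, edgeR adjusted p = 0.0538). Tln1, the main talin, fell by 0.35. The kindlin of blood cells, Fermt3, had 25.0 and 25.5 FPKM in RANKL and RANKL + UD (log2 fold change -0.06, edgeR adjusted p = 0.463).

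Of 18 integrin ligands only 6 were tested, and 12 fell below the filter, among them the fibronectin gene Fn1, the vitronectin gene Vtn and Vcam1, each with a mean of at most 0.117 FPKM in every group. Between RANKL + UD and RANKL 1 was higher and 4 were lower, beside 18.6% and 20.2% of all tested genes, with a median log2 fold change of -0.32 beside 0.005. Spp1, which encodes osteopontin, a bone matrix ligand of αvβ3, was by far the most abundant, with 2263 ± 103 FPKM in control, 1056 ± 15.5 in RANKL and 778.5 ± 13.8 in RANKL + UD (SD, n = 3 each). With RANKL it changed by -1.01 on the log2 scale (edgeR adjusted p = 3.56e-14), and UD beside RANKL added a difference of -0.53 (edgeR adjusted p = 9.66e-09). Tnc, the matrix protein tenascin C, rose by 2.38 with RANKL and changed by -0.38 with UD (edgeR adjusted p = 0.0128), a call that ended without RANKL + UD replicate 1 (-0.33, edgeR adjusted p = 0.0606) and with limma on log2(FPKM + 1) (adjusted p = 0.1). It stood at 5.45 and 4.46 FPKM in RANKL and RANKL + UD. Icam1, a ligand of LFA-1 and Mac-1, rose by 0.21 between RANKL + UD and RANKL (edgeR adjusted p = 0.00453). Tgfb1, whose latent form is bound by αv integrins, fell by 0.37 between RANKL + UD and RANKL.

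Tetraspanins are membrane proteins that associate with integrins. Of 9 genes 8 were tested, and between RANKL + UD and RANKL 0 were higher and 6 lower by edgeR, with a median log2 fold change of -0.42, beside 18.6% higher, 20.2% lower and a median of 0.005 over all tested genes. At an unadjusted p under 0.05 as well as by DESeq2 the count of higher genes was also 0. Cd9, which takes part in cell fusion, had 211 ± 6.98 FPKM in control, 322 ± 13.7 in RANKL and 218 ± 7.63 in RANKL + UD (SD, n = 3 each), and RANKL + UD differed from RANKL by -0.65 (edgeR adjusted p = 1.82e-09). Cd37 fell by 0.69, Cd53 by 0.52, Cd151 by 0.45 and Cd63 by 0.40 on the log2 scale in the same comparison.

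**Figure D4:**
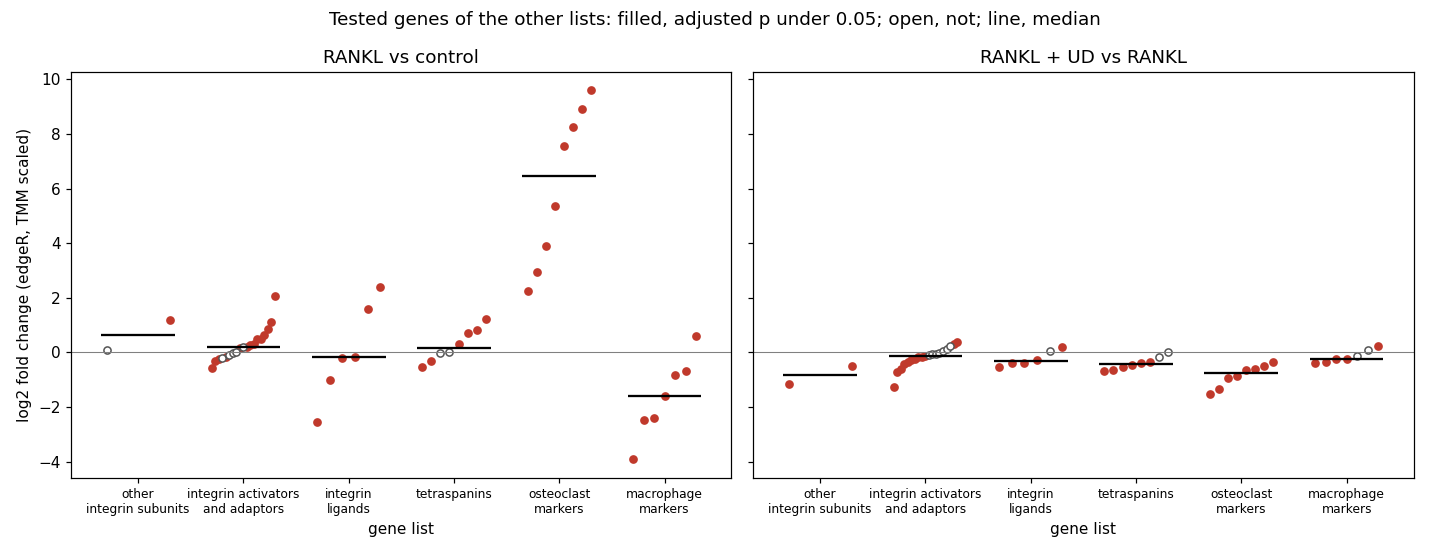
Log2 fold change (vertical axis) of each tested gene of 6 lists (horizontal axis) in RANKL against control on the left and RANKL + UD against RANKL on the right, with filled points for genes with an adjusted p under 0.05, open points for the rest and a line at the list's median. On the right the medians of all 6 lists lie below 0, and the osteoclast markers, with a median of 6.46 on the left, have one of -0.75.

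The genes with the most similar course over the 9 libraries were found by the distance between log2(FPKM + 1) profiles, each centred on its own mean. Nearest to Itgb3 were Slc7a14, Fgd6, Pik3ap1, Parvb and Acap2, at distances of 0.223 to 0.266. Their mean FPKM in control and RANKL was 0.41 and 1.71, 3.47 and 8.83, 47.5 and 100, 9.92 and 20.3, and 47 and 91.8 in that order. Itgb3 had 0.163 and 1.44 FPKM in these groups. Nearest to Itgb5 was Tlr13, a toll-like receptor, at 0.164, followed by Gcnt1, Eepd1, Arl4c and F630028O10Rik. Nearest to Itgam was Cd14, the LPS coreceptor of macrophages, at 0.233, with 523 FPKM in control, 164 in RANKL and 135 in RANKL + UD, followed by Anxa3, Il17ra, Esyt1 and Dusp6. Adding 1 to the FPKM shrinks the changes of genes of low level such as Itgb3, whose change with RANKL is 1.06 on this scale. Nearness to Itgb3 on this scale therefore does not mean an equal fold change.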

How the data were processed

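RNA was measured in 9 libraries of RAW264.7 cells in 3 groups of 3. The authors deposited for each of 56691 genes the read counts, which are whole numbers without normalization, and the FPKM, which they made from the count, the exonic length and the library total. The FPKM recomputed from the deposited counts came out within 0.0051 for 100% of genes. Libraries were poly(A)-selected, strand-specific and sequenced on the Illumina NovaSeq platform. The submitters' processing notes name mm10, and the aligner, the counting tool and its strand setting are not given in the sources used here. Gene coordinates are those of the deposited table, and only 1472 of 52073 genes shared with the GRCm38 annotation (GENCODE M21) have the same coordinates, so the build of the table is not settled. Upstream windows and exon overlaps are on GRCm38 and were matched by symbol or identifier. Columns named Model were read as the RANKL libraries, a name the paper uses for that group.

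Genes with at least 1 FPKM in at least 3 libraries (11995) were tested with edgeR 4.0.16 in R 4.3.3, with the quasi-likelihood test, TMM scaling (factors 0.959 to 1.03). One model held the 9 libraries, and p-values were adjusted by Benjamini-Hochberg over all tested genes. Adjusted p-values in the text come from this test unless another is named, and standard errors and 95% intervals come from the same fit. Shares and ratios were computed per library from FPKM and compared with the exact permutation test. The shares other than that of Itgb3 and the ratios were chosen after the data had been seen. Counts of same-group libraries differed by more than sampling noise (chi-square per degree of freedom 3.0 to 9.75 over 9 pairs), so none were merged. The labels name biological replicates and do not say how cultures were separated, and no batch is given. The edgeR fit was also run on simulated counts with few changed genes and balanced directions. That setting is unlike these data, so it does not test the scaling where most genes change. Python 3.11.15 (scipy 1.17.1, pandas 2.3.3, matplotlib 3.10.9, numpy 2.4.6) was used for tables and plots.

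The members and gene lists were chosen with earlier results of these data known. Named genes are the 10 members, up to 5 genes of each other list with the largest difference between RANKL + UD and RANKL among those called whose libraries do not overlap, and the 5 genes nearest to Itgb3, Itgb5 and Itgam. Tln1, Fermt3, Fn1, Vtn, Vcam1, Itgad, Calcr and the genes that overlap members were named after their values were seen. Alternatives were other filters, RLE or total-count scaling, DESeq2 1.42.0, limma 3.58.1 on log2(FPKM + 1) and log2(FPKM + 0.1), only the libraries compared, the replicate number as a block and each library left out in turn.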

Additional observations from a re-analysis of the deposited data

How the results depend on the processing

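Over the 10 chains, 3 comparisons and 18 alternatives, 519 of 540 log2 fold changes kept their side of the threshold, and 21 lost the call, of which 20 were those of Itgb1 and 1 that of Itgal. The counts of chains higher and lower were 4 to 5 and 4 to 4 for RANKL against control, 1 to 2 and 7 to 8 for RANKL + UD against RANKL, and 3 to 3 and 5 to 5 for RANKL + UD against control when single libraries were left out, the count of 1 being without RANKL replicate 1. When libraries were scaled by their totals alone, the higher and lower calls over all genes went from 3278 and 3628 to 2579 and 4421 for RANKL against control, and from 2233 and 2418 to 3350 and 1707 for RANKL + UD against RANKL, and the chains lost only the calls of Itgb1. With limma on log2(FPKM + 1) the change of Itgb3 with RANKL was 1.06 instead of 3.20, since the added 1 shrinks changes of genes at levels as low as its means of 0.163 and 1.44 FPKM. The difference in the share of Itgb3 was 0.877, -0.396 and 0.480 percentage points as a share of counts in place of FPKM for RANKL against control, RANKL + UD against RANKL and RANKL + UD against control, since counts are not divided by length, and it ranged from 0.436 to 0.544, from -0.260 to -0.152 and from 0.274 to 0.302 when single libraries were left out. The deviations of same-numbered libraries were at most weakly correlated (-0.0194 to 0.0984 over 9 pairs), and 6 of 9 libraries correlated best with their own number. The correlations were 0.0628 to 0.0984 for number 1, -0.0194 to 0.0141 for number 2 and 0.0199 to 0.0606 for number 3. With the replicate number as a block the counts of chains were the same in every comparison, with 8 lower and 2 higher for RANKL + UD against RANKL, and the paired differences in the share of Itgb3 were 0.506, -0.221 and 0.284 (exact sign-flip permutation p = 0.25, the smallest that 3 pairs allow). For the 18 genes of the other lists that the text names for their changes, cell type markers left out, 946 of 972 values stayed on their side of the threshold. None changed direction past it, and this check was added after the data had been seen. The low counts of Itgb3 and Itgal limit the precision of their values most.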
